A study of Homo sapiens with 8 samples.

Results

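Core pluripotency transcription factors were described through the accessible chromatin around 6 genes, POU5F1 (OCT4), SOX2, NANOG, PRDM14, ZFP42 (REX1) and SALL4. The members were every ATAC-seq peak of 8 libraries that overlapped the span of 1 of these genes or the 50 kb on either side of it (GENCODE 44, GRCh38). Peaks that overlapped between libraries were merged, which gave 102 regions of 285909 in all, and the 6 genes are 6 of 19962 protein-coding genes. By gene there were 24 regions for POU5F1, 21 for SOX2, 13 for NANOG, 16 for PRDM14, 11 for ZFP42 and 17 for SALL4. Regions with a peak in both libraries of at least 1 stage were tested, and 61 of the 102 passed this filter (14, 10, 7, 12, 8 and 10 in the same order). The genes lie at chr6:31164337-31180731 (POU5F1), chr3:181711925-181714436 (SOX2), chr12:7787794-7799146 (NANOG), chr8:70051651-70071693 (PRDM14), chr4:187995771-188005046 (ZFP42) and chr20:51782331-51802521 (SALL4). The filter also keeps regions that are high at 1 stage only. Of the 61, 23 had both peaks at 1 stage only, and so did 11 of the 17 regions that were called in any comparison. The direction of a difference from that stage was then set in large part by the filter and by the values filled in elsewhere, so its p is given as a description and supports nothing. The same goes for a difference to a stage where no library had a peak.

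ATAC-seq marks open DNA through the insertions of the Tn5 transposase. The cells were RUES2, a widely used line of human embryonic stem cells with no genetic change named, taken as 2 libraries at each of 4 stages of directed cardiac differentiation. On day 0 they were undifferentiated (hESC), on day 2 mesoderm (MES), on day 5 cardiac progenitors (CP) and on day 14 cardiomyocytes (CM). The study asked how accessibility changes beside the folding of the genome, and here it is read at genes that the cells leave behind. All wells were seeded with the ROCK inhibitor Y-27632 and spent the day before day 0 in Essential 8 medium with CHIR-99021, an activator of Wnt signalling, so the hESC libraries come from cells that had met this agent too. MES cells had then been kept until day 2 in RBA medium (RPMI with albumin and ascorbic acid) with more CHIR-99021. CP cells had in addition been given the Wnt inhibitor Xav-939 in RBA from day 3, and CM cells RBA without inhibitors from day 5 and RPMI with B27 from day 7. The labels do not name separate differentiations for the replicates, so p-values measure the spread between these libraries, which may be technical.

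POU5F1, a POU-domain factor, and SOX2, an HMG-box factor, bind side by side to a composite element made of an octamer and a SOX motif, and with the homeodomain protein NANOG they occupy their own and one another's genes in pluripotent cells. PRDM14, a PR-domain zinc finger protein, helps to hold human embryonic stem cells in the pluripotent state. ZFP42 is a zinc finger protein widely used as a marker of that state, and SALL4 is a spalt-type zinc finger factor that stem cells need for self-renewal. SOX2 also acts in the neural lineage, and SALL4 in early embryonic tissues.

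The sequences of 6 regions that the results below turn on were read from GRCh38 around the strongest summit of each region. They run 5′ to 3′ on the strand of the gene, without annotated exons, and capitals mark the octamer ATTTGCAT, its last 7 letters TTTGCAT or the SOX motif ACAATG on either strand. The window just upstream of the NANOG start site and the next 2 NANOG windows come from regions that had peaks in all hESC and MES libraries and in no CP or CM library.
NANOG start site, chr12:7789247-7789401, + strand: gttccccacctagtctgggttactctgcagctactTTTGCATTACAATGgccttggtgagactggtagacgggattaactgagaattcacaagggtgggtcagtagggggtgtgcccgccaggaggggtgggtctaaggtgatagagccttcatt
NANOG 1.62 kb upstream, chr12:7787647-7787793, + strand: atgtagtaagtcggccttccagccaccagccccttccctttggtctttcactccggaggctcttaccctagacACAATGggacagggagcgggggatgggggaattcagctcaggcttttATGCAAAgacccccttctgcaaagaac
NANOG 30.9 kb upstream, chr12:7758423-7758622, + strand: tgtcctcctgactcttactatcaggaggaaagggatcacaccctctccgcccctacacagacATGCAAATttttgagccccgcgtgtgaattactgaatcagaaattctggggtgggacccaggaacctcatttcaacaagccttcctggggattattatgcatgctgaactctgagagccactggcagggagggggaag
The ZFP42 window comes from a region that was lower in CM, the SOX2 window from a start site with peaks in all libraries, and the POU5F1 window from the region nearest to its start site. A distance in a label is that of the midpoint of the whole region. The POU5F1 window itself lies around the summit of hESC replicate 2, at -1426 bp from the start site.
ZFP42 36.5 kb downstream, chr4:188032284-188032483, + strand: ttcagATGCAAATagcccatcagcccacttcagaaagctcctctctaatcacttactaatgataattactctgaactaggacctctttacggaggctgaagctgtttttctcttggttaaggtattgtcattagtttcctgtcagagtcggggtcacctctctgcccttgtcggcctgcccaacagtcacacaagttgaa
SOX2 start site, chr3:181711743-181711924, + strand: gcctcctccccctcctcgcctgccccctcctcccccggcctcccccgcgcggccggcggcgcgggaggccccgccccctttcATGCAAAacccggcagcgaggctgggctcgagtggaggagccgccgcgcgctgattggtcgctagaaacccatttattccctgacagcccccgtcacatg
POU5F1 1.85 kb upstream, chr6:31172008-31172207, - strand: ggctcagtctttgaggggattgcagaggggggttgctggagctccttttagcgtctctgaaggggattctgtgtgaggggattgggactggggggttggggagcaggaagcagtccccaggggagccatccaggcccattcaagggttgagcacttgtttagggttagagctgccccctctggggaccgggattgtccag

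The value of a region in a library is the fold of its highest peak over the local background, as the peak caller gave it, and −log10 q measures how sure that peak is. The lists differ in length, from 55873 peaks in CM replicate 2 to 156282 in MES replicate 2, with 103189 and 156234 in hESC and 92891 in CM replicate 1. For the tests, log2 folds were centred on the regions present in all libraries, and a library without a peak was given the fold of its own weakest peaks, 2.39 to 3.11. A region that was filled at both stages thereby differs by -0.09 from hESC to MES, 0.04 from MES to CP, 0.30 from CP to CM and 0.24 from hESC to CM on the log2 scale, and values at or near these carry no change. Differences are log2 differences ± SE from limma with Benjamini-Hochberg adjustment over 131956 regions, with 2 libraries per stage. The stage labels were compared with start-site regions of marker genes. Of 9 cardiomyocyte genes, 6 had a tested start-site region and 4 of these were higher in CM than in hESC, and by limma none was lower, also at an unadjusted p under 0.05. TNNT2, the cardiac troponin T gene, had peaks in CP replicate 2 (5.33) and in both CM libraries (3.96 and 5.65) and in none of the others. Of 7 pluripotency markers, 6 were tested and 1 was lower in CM, DPPA4. The 7 include the members POU5F1, SOX2 and NANOG. The others, LIN28A, TDGF1, DPPA4 and DNMT3B, are also in the list of network genes below. Among the markers of other cells, ACTA2 of fibroblasts and smooth muscle (1 of 4 tested) and HAND2 of cardiac progenitors (1 of 7) were higher in CM. Among the higher markers, TNNT2, MYH6 and HAND2 had passed the filter through CM only, which fixed the direction. MYL7 and ACTA2 also had no peak in hESC, so their hESC values were filled. These calls describe the libraries and are no test of the stage labels. Those of mesoderm (5), neural ectoderm (3), endoderm (4) and endothelium (2) gave no call from hESC to CM by limma, with 1, 1, 1 and 1 higher and 0, 0, 0 and 1 lower at an unadjusted p under 0.05, and the start sites of all 5 mesoderm markers had peaks in all 8 libraries. From CP to CM, PAX6 of neural ectoderm (0.73, adjusted p = 0.0397) and FOXA1 of endoderm (0.63, adjusted p = 0.0355) were higher by limma. PAX6 had a filled value in CP replicate 1 and 3.06 in CP replicate 2. FOXA1 had folds of 2.80 and 2.37 in CP and 2.97 and 3.62 in CM, near the filled values, which alone differ by 0.30 at this step. Consecutive comparisons share a stage, and so its libraries.

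Of 42 regions that were open in both hESC libraries, 13 had no peak in CM, and the same share was not counted over all regions. Of the 102 regions, 17 (16.7%) had a peak in all 8 libraries, beside 9.83% of all merged regions, and 28 (27.5%) had a peak in 1 library only, beside 40.7%. In both CM libraries 22 regions had peaks. The 13 regions with peaks in both hESC libraries and in no CM library were 12.7% of the members, close to the 13.5% of all merged regions. The reverse, both CM libraries and no hESC library, was found at 1 region (0.980%), a POU5F1 region, beside 3.15%. In bulk cells, fewer open cells and less open chromatin per cell cannot be told apart. By the stages that had peaks in both libraries, 17 regions were open at all 4, 11 from hESC to CP, 3 in hESC and MES, and 8 in hESC alone. Another 7 were open in both libraries of MES alone, 6 of CP alone, 2 of CM alone, 4 of MES and CP, 2 of hESC, MES and CM, and 1 of hESC and CM, and 41 at no stage. Shares over all merged regions are not given for most of these patterns, so the counts describe the members only. The 13 hESC regions without a CM peak fell to NANOG (4), PRDM14 (3), POU5F1 (2), ZFP42 (2), SOX2 (1) and SALL4 (1).

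**Figure D1:**
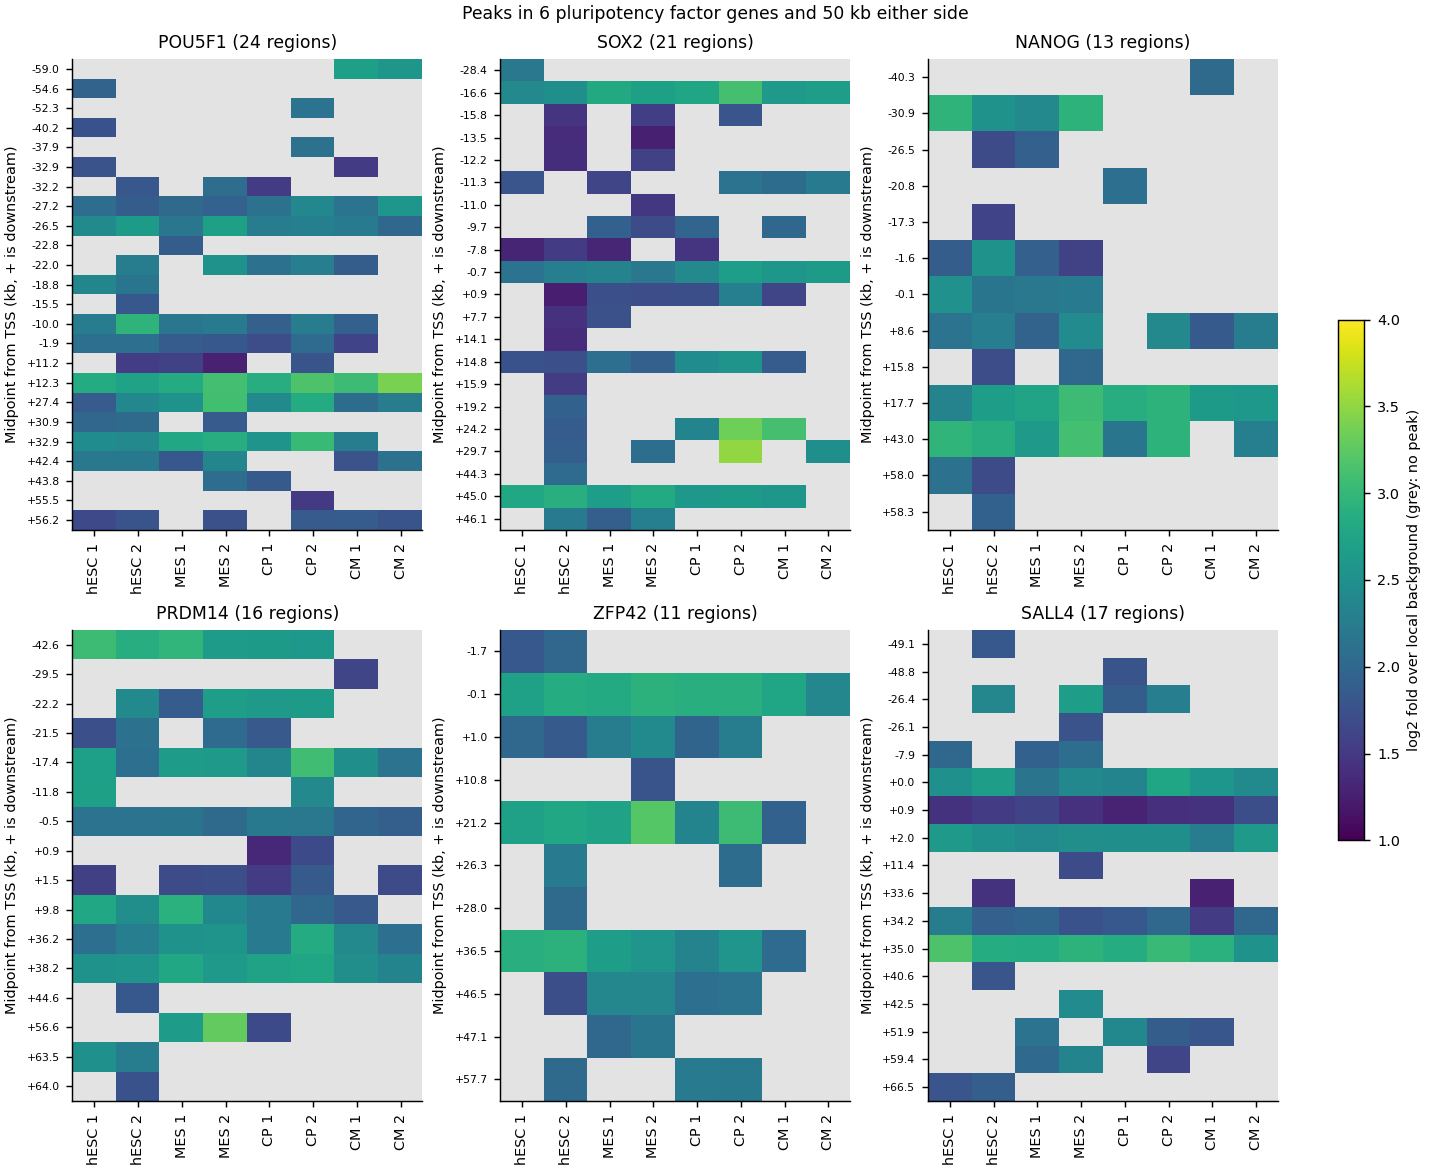
Log2 fold over local background of the 102 regions (rows, labelled with the distance of the midpoint from the start site in kb) in the 8 libraries (columns), with grey where a library had no peak. Rows coloured throughout, 17 in all, were open at every stage, whereas at NANOG 3 rows were coloured in hESC and MES and grey from CP on.

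Of the 5 members with a region at the start site, NANOG had no peak there in CP and CM, and the other 4 had peaks throughout. At NANOG, the region over the start site (chr12:7789196-7789466) had folds of 5.73 and 4.47 in hESC and 4.58 and 4.68 in MES, and no peak in the 2 CP and 2 CM libraries. Its libraries thus fall into hESC and MES with a peak and CP and CM without, where a missing peak is not a measured value. Of 15155 regions at start sites of protein-coding genes, 39 (0.257%) had this pattern, whereas 80.5% had a peak in all 8 libraries. With the 4 later libraries filled, the difference from MES to CP was -0.74 ± 0.31 (adjusted p = 0.0881) and that from hESC to CM -0.67 ± 0.31 (adjusted p = 0.0903), so neither passed the threshold of 0.05. This turned on the value given to a library without a peak and on the centring. With a fold of 1 it was -2.12 from hESC to CM and passed, and it also passed with the lowest fold of each list (-1.13) and without centring (-0.89).

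SOX2, PRDM14, ZFP42 and SALL4 kept a peak at the start site in every library. SOX2 (chr3:181710441-181712061) had folds of 4.42 and 4.90 in hESC, 5.06 and 4.55 at MES, 5.34 and 6.42 at CP, and 6.01 and 6.19 in CM. Both CM values lay above both hESC values, but the difference of 0.61 ± 0.27 missed the threshold (adjusted p = 0.0786) and passed where a missing peak was set to a fold of 1. ZFP42 (chr4:187995267-187996063) had 6.58 and 7.26 in hESC, 7.13 and 7.58 at MES, 7.42 and 7.39 at CP, and 6.84 and 5.22 in CM. Here only CM replicate 2, the shortest list, stood below the rest, and the difference from hESC to CM was 0.01 ± 0.22 (adjusted p = 0.974).

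PRDM14 (chr8:70070833-70072591) ranged from 3.76 to 4.65 over the 8 libraries and SALL4 (chr20:51802117-51802854) from 4.45 to 6.84. Their differences from hESC to CM were 0.02 ± 0.32 (adjusted p = 0.960) and 0.14 ± 0.26 (adjusted p = 0.701). Without centring the differences of PRDM14, ZFP42 and SALL4 turned to -0.20, -0.21 and -0.08, and that of SOX2 was 0.39. None of the 5 start-site regions, SOX2 and NANOG included, was called from hESC to CM by limma, and 2 had an unadjusted p under 0.05. Of 14092 tested start-site regions, 2.78% were lower in CM and 8.01% higher. The SEs of 0.22 to 0.32 leave room for changes that were not detectable with 2 libraries per stage.

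POU5F1 had no peak within 1 kb of the start of its main transcript in any library. The nearest region (chr6:31171790-31173279) began 1.11 kb upstream, in a stretch known for a proximal and a distal enhancer of the gene. It had folds of 4.26 and 4.27 in hESC, 3.67 and 3.56 at MES, 3.26 and 4.13 at CP, 3.04 in CM replicate 1 and no peak in CM replicate 2. Both hESC values were the highest, and −log10 q went from 24.5 and 33.6 in hESC to 6.61 in CM replicate 1. In the same libraries −log10 q also fell at start sites where the fold gave no call. It went from 30.9 and 52.0 to 20.7 at ZFP42 and from 21.5 and 31.5 to 13.7 at PRDM14. At SOX2 (28.5) and SALL4 (42.6) CM replicate 1 lay between the hESC values. The test from hESC to CM, with CM replicate 2 filled, gave -0.25 ± 0.31 (adjusted p = 0.551). In hESC replicate 1 the peaks of this region split into a part with its summit at -1369 bp from the start and another at -2416 bp, with folds of 4.26 and 3.62. In hESC replicate 2 the peak was not split and had its summit at -1426 bp. In CM replicate 1 the summits stood at -1283 and -1946 bp, with folds of 2.66 and 3.04, and no peak covered the more distal summit of hESC replicate 1. This contrast rests on 1 hESC and 1 CM library. A search of the genome with the 200 bp on either side of the POU5F1 start found no other place with at least 90% identity over at least 50% of the length.

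Around POU5F1, on chromosome 6, a region at the start of its neighbours had the highest fold in every library but hESC replicate 2. This region 12.3 kb downstream (chr6:31157927-31158794) lies at the start sites of TCF19 and CCHCR1 and had 7.19 and 6.64 in hESC, 7.19 and 8.63 at MES, 7.29 and 8.95 at CP, and 8.34 and 10.5 in CM. Both CM values were above both hESC values, and the difference of 0.66 ± 0.19 passed (adjusted p = 0.00295). It did not pass without hESC replicate 2 (0.58, adjusted p = 0.0819) or without centring (adjusted p = 0.118). Another region open in all libraries lay at the start of HCG27, a non-coding gene, 26.5 kb upstream (chr6:31196942-31197365), with folds of 4.05 to 6.53, and gave no call.

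Only in CM did an intergenic region 59.0 kb upstream of POU5F1 (chr6:31229451-31229863) have peaks, with folds of 6.46 and 6.02. With the 6 other libraries filled, the difference was 1.49 ± 0.27 from CP to CM (adjusted p = 3.99e-06) and 1.44 ± 0.27 from hESC to CM (adjusted p = 3.43e-06), and its direction was fixed because the region passed the filter through CM only. Both calls held with each library left out, and that from hESC was lost with lists of equal length (adjusted p = 0.121). The reverse pattern was seen 18.8 kb upstream (chr6:31189320-31189596), where hESC had 5.19 and 4.47 and no later library had a peak. Over 50.2% of its length it aligned at 91.4% identity to its best of 5 other places. From hESC to MES the difference was -0.93 ± 0.24 (adjusted p = 0.00143), and this was lost without hESC replicate 1 (-0.82, adjusted p = 0.0511) and without MES replicate 2 (-0.83, adjusted p = 0.0983). From hESC to CM it gave -0.60 ± 0.24 (adjusted p = 0.0458), and leaving out any library raised the adjusted p to between 0.0614 and 0.361. With no filter on regions the adjusted p from hESC to CM was 0.243, and the direction of both differences was fixed because the region passed the filter through hESC only. The region 10.0 kb upstream (chr6:31180459-31180974), over an alternative POU5F1 start, had 4.82 and 7.72 in hESC, 3.77 to 4.78 in MES, CP and CM replicate 1, and no peak in CM replicate 2 (-0.61 ± 0.31, adjusted p = 0.124). The remaining POU5F1 regions had no call at any step, and 10 of the 24 were not tested.

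SOX2 lies inside SOX2-OT, a long non-coding RNA gene on chromosome 3, and all of its 21 regions overlap that gene's exons or introns or those of other transcripts there. A region 24.2 kb downstream, in SOX2-OT (chr3:181735888-181736444), had no peak in hESC replicate 1 and 3.65 in replicate 2, none in MES, 5.13 and 10.1 in CP, and 8.69 in CM replicate 1 with none in replicate 2. It passed the filter through CP only. From MES to CP it was higher by 1.45 ± 0.32 (adjusted p = 0.000236), with both MES libraries filled. This call held with each library left out, and was lost with a fold of 1 for a missing peak (adjusted p = 0.211) and with lists of equal length (adjusted p = 0.673). The difference from hESC to CM of 0.90 ± 0.32 (adjusted p = 0.0215) rested on CM replicate 1, since without it the value was 0.13 (adjusted p = 0.850). It also did not pass without hESC replicate 1 (0.74, adjusted p = 0.219) or replicate 2 (1.04, adjusted p = 0.0677). A region 29.7 kb downstream (chr3:181741430-181741883) reached the highest fold of all members, 11.4, in CP replicate 2, with 5.65 in CM replicate 2, 3.74 in hESC replicate 2 and 4.25 in MES replicate 2. It had no peak in any replicate 1 library, and so was not tested.

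Upstream of SOX2, the region at 11.3 kb (chr3:181700493-181700766) had 3.47 in hESC replicate 1, 3.09 in MES replicate 1, 4.43 in CP replicate 2, and 4.16 and 4.74 in CM. It passed the filter through CM only. It was higher in CM than in hESC by 0.82 ± 0.28 (adjusted p = 0.0151), with hESC replicate 2 filled, and this was lost without that library (0.55, adjusted p = 0.382) or without MES replicate 1 (0.82, adjusted p = 0.0525). With a fold of 1 for the missing peak the adjusted p was 0.301, without centring 0.113, and with no filter on regions 0.0891. An intronic region of SOX2-OT, 16.6 kb upstream (chr3:181694899-181695842), was open at every stage, with 5.31 and 5.62 in hESC and 6.13 and 6.35 in CM, and did not pass (0.41 ± 0.23, adjusted p = 0.171). At 45.0 kb downstream (chr3:181756587-181757189), folds were 6.94 and 7.34 in hESC, 6.05 to 7.14 in MES and CP, and 6.01 in CM replicate 1, with no peak in CM replicate 2 (-0.50 ± 0.25, adjusted p = 0.113). The remaining SOX2 regions had no call, and 11 of the 21 were not tested.

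NANOG, on chromosome 12, had 3 regions with peaks up to MES and none later, at its start site and upstream of it. The strongest of them by −log10 q in hESC, 30.9 kb upstream (chr12:7758296-7758720, intergenic), had 7.76 and 5.82 in hESC, 5.34 and 7.70 at MES, and no peak in CP or CM. The difference was -1.21 ± 0.32 from MES to CP (adjusted p = 0.00263) and -1.08 ± 0.32 from hESC to CM (adjusted p = 0.00454), with the 4 later libraries filled. The filling set both directions in large part. The call at the step to CP was lost without MES replicate 2 (-1.01, adjusted p = 0.103) and with lists of equal length (adjusted p = 0.317), and the other without hESC replicate 1 (-0.87, adjusted p = 0.161) or CM replicate 1 (-0.92, adjusted p = 0.0814). The region 1.62 kb upstream (chr12:7787462-7788101), at an alternative start of the gene, followed the same pattern with 3.69 and 5.83 in hESC and 3.77 and 2.98 in MES, and did not pass at any step (hESC to CM -0.55 ± 0.26, adjusted p = 0.103). Over the 102 regions this pattern was found only at these 3 (2.94%), beside 1.59% of all merged regions. The start-site region has a near copy on the same chromosome (chr12:7892162-7892424, 93.3% identity over 99.3% of its length), where no library had a peak. Reads that place equally well at both would fail the filter on mapping quality, and their part in these values was not tested.

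Downstream of NANOG, 1 region was open at every stage. At 17.7 kb (chr12:7806915-7807225, intergenic) all libraries had a peak, with 5.08 and 6.36 in hESC and 6.21 and 6.04 in CM, and the difference was 0.33 ± 0.22 (adjusted p = 0.285). At 8.59 kb (chr12:7797616-7798365), over an exon of NANOG, folds of 3.59 to 5.47 were found in all libraries but CP replicate 1. In an intron of SLC2A14, a glucose transporter gene 43.0 kb downstream (chr12:7832122-7832664), folds were 7.78 and 7.32 in hESC, 6.12 and 8.59 at MES, 4.49 and 7.67 at CP, and 4.92 in CM replicate 2 with none in CM replicate 1. The difference from hESC to CM was -0.92 ± 0.26 (adjusted p = 0.00246, CM replicate 1 filled), and this was lost without hESC replicate 1 (-0.87, adjusted p = 0.0730) and without CM replicate 1 (-0.42, adjusted p = 0.309), and with a fold of 1 for the missing peak (adjusted p = 0.143). At 58.0 kb (chr12:7847286-7847582) hESC had 4.34 and 3.22 and no later library a peak. Its difference from hESC to MES of -0.57 ± 0.22 (adjusted p = 0.0466) was lost without any 1 of 7 libraries, with adjusted p from 0.0662 to 0.486, and with no filter on regions (adjusted p = 0.393). It had passed the filter through hESC only. This region too has a near copy on chromosome 12 (92.0% identity over 58.6% of its length). At 40.3 kb upstream, at the start of CLEC4C, the only peak was in CM replicate 1 (4.11), and 6 of the 13 NANOG regions were not tested.

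PRDM14, on chromosome 8, held the largest decrease from hESC to CM among the members. In an intron of NCOA2, a nuclear receptor coactivator gene, 42.6 kb upstream of PRDM14 (chr8:70113696-70114100), folds were 8.30 and 7.30 in hESC, 7.89 and 6.28 at MES, 6.20 and 6.04 at CP, and no peak in CM. The 6 libraries with peaks were all above 6, and the difference from hESC to CM was -1.29 ± 0.27 (adjusted p = 2.36e-05), with both CM libraries filled. That call held with each library left out, which adds no support. The CM values stayed filled, and this set the direction in large part. The step from CP to CM gave -0.88 ± 0.27 (adjusted p = 0.0139) and was lost without hESC replicate 1 (adjusted p = 0.0528), MES replicate 1 (adjusted p = 0.0530), CP replicate 1 (0.174) or CM replicate 1 (0.0892).

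A region 56.6 kb downstream of PRDM14 (chr8:70014396-70014987, intergenic) was open at the mesoderm stage, with 6.33 and 9.71 in MES, 3.20 in CP replicate 1 and no peak in hESC, CP replicate 2 or CM, so that it passed the filter through MES only. It was higher in MES than in hESC by 1.44 ± 0.31 (adjusted p = 0.000114) and the difference from MES to CP was -1.37 ± 0.31 (adjusted p = 0.000392), with the libraries without a peak filled, and both calls held with each library left out. The rise was lost with lists of equal length (adjusted p = 0.286) and the fall with a fold of 1 for a missing peak (adjusted p = 0.130). At 63.5 kb downstream (chr8:70007621-70007848) hESC had 5.67 and 4.80 and no other library a peak. The difference was -1.05 ± 0.25 from hESC to MES (adjusted p = 0.000522), lost without MES replicate 2 (-0.94, adjusted p = 0.0628). From hESC to CM it was -0.72 ± 0.25 (adjusted p = 0.0191), lost without any 1 of 5 libraries, with adjusted p from 0.0528 to 0.263, and with no filter on regions (adjusted p = 0.152). This region too passed the filter through hESC only, which fixed the direction. Regions 36.2 and 38.2 kb downstream and 17.4 kb upstream had peaks in all 8 libraries, with folds of 4.26 to 8.45, and gave no call. An intronic region of PRDM14 9.76 kb downstream of its start had 6.90 and 5.60 in hESC, 3.57 in CM replicate 1 and no peak in CM replicate 2, and did not pass (-0.68 ± 0.29, adjusted p = 0.0653, CM replicate 2 filled). Of the 16 PRDM14 regions, 4 were not tested.

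ZFP42, on chromosome 4, kept its start-site peak, and 2 of its 6 tested downstream regions were lower in CM. At 21.2 kb downstream (chr4:188016725-188017132) folds were 6.57 and 6.91 in hESC, 6.61 and 9.27 at MES, 5.13 and 8.33 at CP, 3.81 in CM replicate 1 and none in CM replicate 2. At 36.5 kb (chr4:188031711-188032904) they were 7.38 and 7.61 in hESC, 6.39 and 5.93 at MES, 5.05 and 5.93 at CP, 4.13 in CM replicate 1 and none in replicate 2. At both, CM replicate 1 had the lowest fold of the libraries with a peak. The differences from hESC to CM, with CM replicate 2 filled, were -0.75 ± 0.25 (adjusted p = 0.0140) and -0.84 ± 0.27 (adjusted p = 0.00869). Both calls were lost without CM replicate 2 (-0.45 and -0.49, adjusted p = 0.223 and 0.222), without hESC replicate 1 (-0.78 and -0.86, adjusted p = 0.0985 and 0.0912) and without hESC replicate 2 (-0.74 and -0.84, adjusted p = 0.124 and 0.0992). They were also lost with a fold of 1 for the missing peak (adjusted p = 0.109 and 0.104).

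Of the further ZFP42 regions, 3 passed at a single step. A region 1.73 kb upstream of the start had peaks in hESC only (3.54 and 3.96), with -0.57 ± 0.22 from hESC to MES (adjusted p = 0.0454). A region 47.1 kb downstream had peaks in MES only (4.02 and 4.49), with -0.61 ± 0.23 from MES to CP (adjusted p = 0.0460). Both calls were lost whichever library was left out, with adjusted p from 0.0645 to 0.392 and from 0.0529 to 0.344. Each passed the filter through its 1 stage only, which fixed the direction, and with no filter on regions the adjusted p was 0.393 and 0.397. The region 57.7 kb downstream had 4.09 in hESC replicate 2, 4.70 and 4.65 in CP and no peak elsewhere. It passed the filter through CP only and was higher in CP than in MES by 0.82 ± 0.27 (adjusted p = 0.0177). With no filter on regions the adjusted p was 0.134, and without hESC replicate 1, MES replicate 1, MES replicate 2 or CP replicate 1 the adjusted p was 0.0911 to 0.242. An intronic region 1.03 kb downstream of the start had 3.61 to 5.39 in the 6 libraries of hESC, MES and CP and none in CM, and did not pass (-0.26 ± 0.32, adjusted p = 0.548). Of the 11 ZFP42 regions, 3 were not tested.

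SALL4, on chromosome 20, was the member with the most regions open throughout, 5 of 17. Of these, 3 lay at its own start sites and 2 at the start of ATP9A, a neighbouring phospholipid flippase gene. The region 2.05 kb downstream of the main start (chr20:51800109-51800837) had folds of 4.80 to 6.16 over the 8 libraries, with 6.12 and 5.66 in hESC and 4.80 and 6.16 in CM. The ATP9A region 35.0 kb downstream (chr20:51766938-51768010) had 8.93 and 7.24 in hESC and 7.57 and 5.79 in CM. Hence the groups overlapped at both, with differences of 0.11 ± 0.26 (adjusted p = 0.773) and -0.06 ± 0.20 (adjusted p = 0.834). A region in an intron of ATP9A 59.4 kb downstream had no peak in hESC, 4.07 and 5.11 at MES, 3.10 in CP replicate 2 and none in CM. It was higher in MES than in hESC by 0.66 ± 0.24 (adjusted p = 0.0311), and this was lost without any 1 of 7 libraries, with adjusted p from 0.0518 to 0.360, and with no filter on regions (adjusted p = 0.278). It had passed the filter through MES only. From hESC to CM no SALL4 region was called by limma, and none of the 10 tested had an unadjusted p under 0.05.

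**Figure D2:**
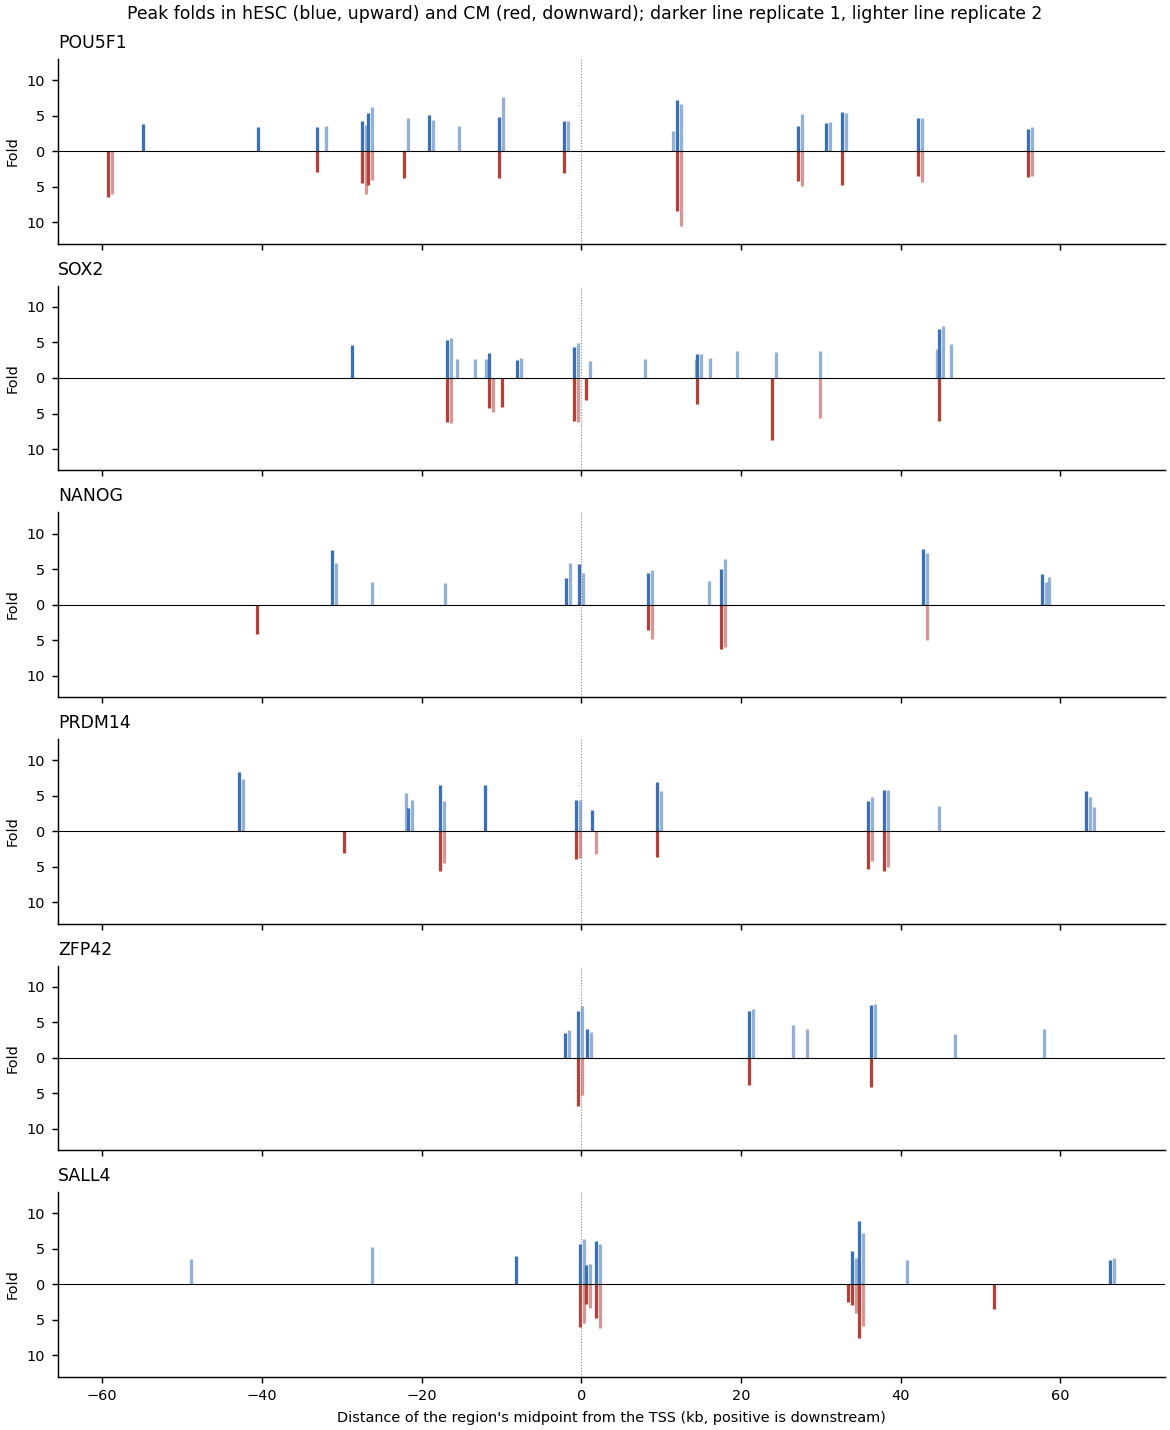
Folds of the peaks of each locus in hESC (upward) and CM (downward), by the distance of the region's midpoint from the start site in kb, with 1 line per library. NANOG had hESC lines and no CM line at its start site and 30.9 kb upstream, whereas the POU5F1 locus had CM lines and no hESC line 59.0 kb upstream.

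Counted over the 61 tested regions, each step called few. From hESC to MES, 4 regions were lower and 2 higher, where 10.9% of all tested regions were lower and 10.9% higher. From MES to CP, 3 were lower and 2 higher, beside 12.4% and 4.71%. From CP to CM, 1 was lower and 1 higher, beside 5.39% and 4.39%. From hESC to CM, 7 (11.5%) were lower and 4 (6.56%) higher, beside 19.0% and 9.59%. Without centring, 11 were lower and 1 higher from hESC to CM, and the shares over all regions for that setting are not given. The medians that centring takes out were 2.80 and 2.84 in hESC and 2.56 and 2.64 in CM on the log2 scale. Without it, CM values therefore stand lower against hESC at every region. With centring, the shares of the members lay below or close to those of all regions, and the median difference from hESC to CM was 0.02 for the members and -0.06 for all regions. Among these calls, regions that had passed the filter through 1 stage only were 4 of the lower and 2 of the higher from hESC to MES, 2 and 2 from MES to CP, 0 and 1 from CP to CM, and 2 and 3 from hESC to CM. Hence these counts give no result particular to the 6 loci. The 7 lower regions belonged to NANOG (2), PRDM14 (2), ZFP42 (2) and POU5F1 (1), and the 4 higher ones to POU5F1 (2) and SOX2 (2). Of 20 tested regions that had peaks in all 4 hESC and CM libraries, so that no value was filled, none was lower by limma (also at an unadjusted p under 0.05) and 1 was higher, the TCF19 and CCHCR1 region. Every lower call from hESC to CM therefore rests on libraries without a peak.

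**Figure D3:**
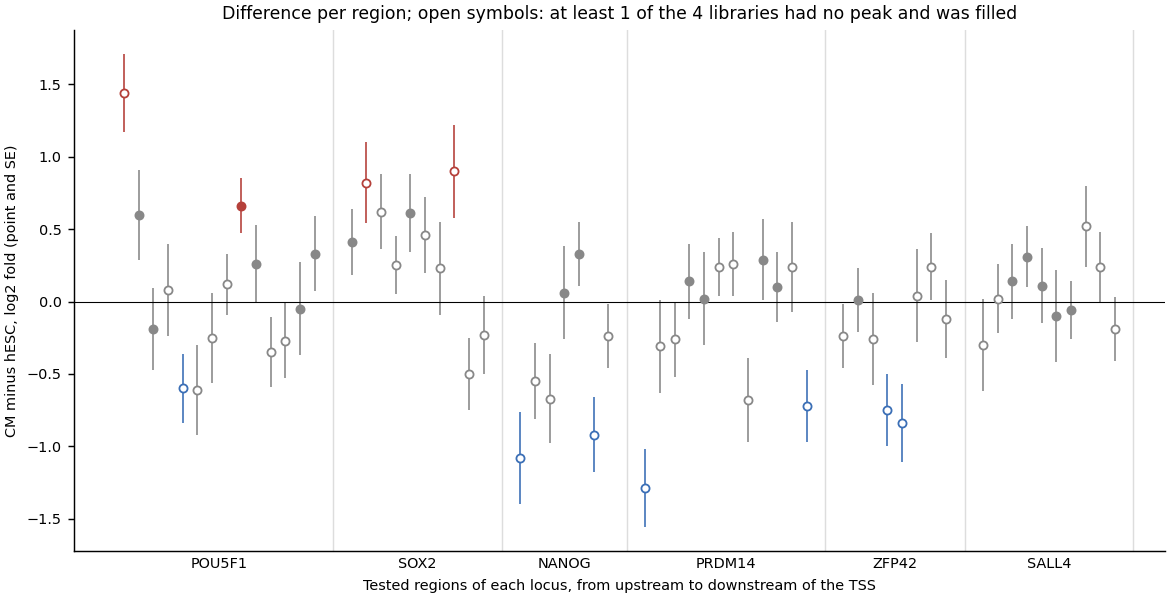
Difference between CM and hESC in log2 fold, as point and SE, for the 61 tested regions in order of position at each locus, with lower calls in blue and higher calls in red. Open symbols mark regions where at least 1 of the 4 libraries was filled, and all 7 lower calls are open.

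By position, 12 regions lay within 1 kb of a start site of the members, 24 at start sites of other genes and 66 away from start sites, and 12, 13 and 36 of these were tested. Of the 17 regions open in all libraries, 6 were at the members' own start sites, 5 at those of other genes and 6 away from any. The features under the 102 regions were exons for 34, introns for 32 and no gene for 36.

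The number of peaks per locus went with the length of the lists. The 6 loci together held 53 and 79 peaks at the hESC stage, 54 and 67 at MES, 52 and 52 at CP, and 42 and 27 at CM. Per 10000 peaks of each list this is 5.14 and 5.06, 4.98 and 4.29, 5.21 and 4.33, and 4.53 and 4.84, so that both CM values lay below both hESC values and within the range of MES and CP. NANOG had 7 and 12 peaks at the hESC stage, 7 and 7 at MES, and 3 in each CP and CM library. ZFP42 went from 5 and 9 at hESC through 6 and 8 at MES and 7 and 8 at CP to 3 and 1 at CM. In both, all hESC counts were above all CM counts, and so were the numbers per 10000 peaks, 0.679 and 0.769 against 0.324 and 0.538 at NANOG and 0.485 and 0.576 against 0.324 and 0.179 at ZFP42. POU5F1 went from 15 and 16 to 13 and 7, SOX2 from 9 and 19 to 9 and 5, PRDM14 from 10 and 13 to 7 and 6, and SALL4 from 7 and 10 to 7 and 5. At POU5F1 and PRDM14 all hESC counts were also above all CM counts, but not per 10000 peaks. At SALL4 both CM values per 10000 peaks lay above both hESC values. The median locus had 8 and 11 peaks in hESC and 7 and 5 in CM. How many of all loci separate in this way was not counted, so whether it is particular to NANOG and ZFP42 is not known.

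Relative to the median locus of each library, log2(peaks + 1) differed between CM and hESC by -0.87 ± 0.28 at ZFP42 (adjusted p = 0.0917) and by -0.77 ± 0.28 at NANOG (adjusted p = 0.126). The values were -0.28 ± 0.23 at SOX2 (adjusted p = 0.480), -0.14 ± 0.21 at PRDM14 (adjusted p = 0.725), -0.06 ± 0.20 at POU5F1 (adjusted p = 0.896) and 0.15 ± 0.22 at SALL4 (adjusted p = 0.720). None of the 6 passed (2 had an unadjusted p under 0.05), where 1.92% of 19264 loci were lower in CM and 1.16% higher by limma. ZFP42 passed without CM replicate 1 (-1.16, adjusted p = 0.0223), where CM is replicate 2 alone, with 1 ZFP42 peak in the shortest list and assumed to vary like the other stages.

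**Figure D4:**
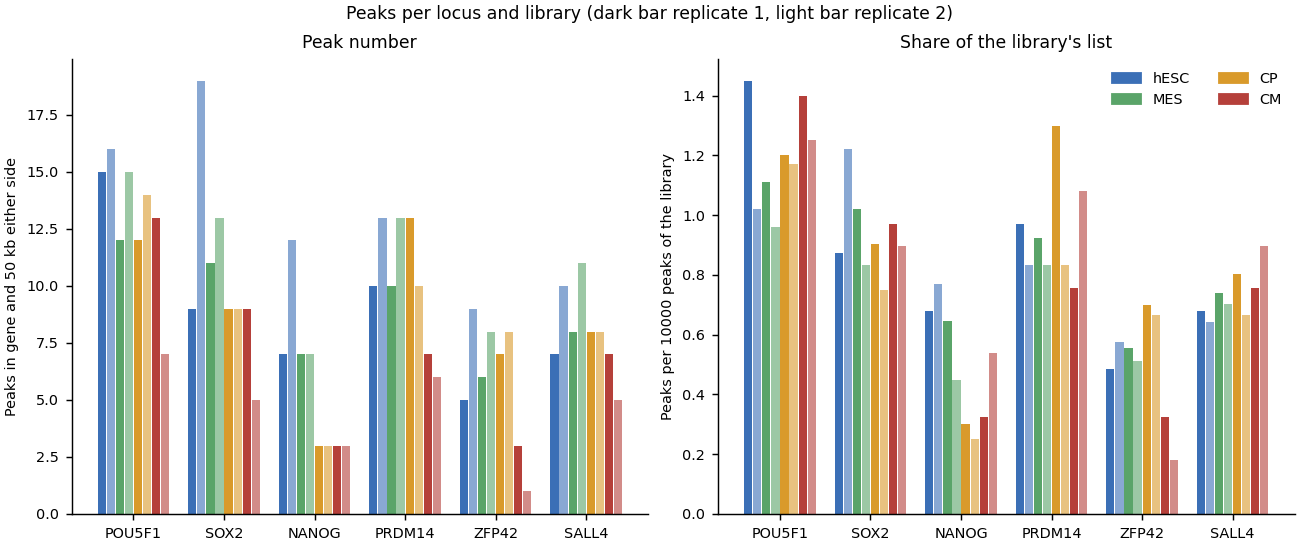
Number of peaks in each gene and 50 kb either side (left) and the same per 10000 peaks of the library's list (right), with 1 bar per library, coloured by stage. NANOG had 3 peaks in each CP and CM library and 7 to 12 in hESC and MES, and ZFP42 had 1 and 3 in CM and 5 to 9 earlier.

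The windows of 200 bp around the summits were searched on both strands for octamer and SOX motifs, which POU5F1 and SOX2 bind, and for GATA and TCF/LEF motifs. No motif of NANOG, PRDM14, ZFP42 or SALL4 was searched. The octamer ATTTGCAT was found in 2 of the 61 tested member regions (3.28%) and in 2.06% of all 131956. Both were regions that were lower in CM, at NANOG 30.9 kb upstream and at ZFP42 36.5 kb downstream. Its last 7 letters, TTTGCAT, which the full octamer contains and which were searched after the data had been seen, were found in 7 (11.5%), beside 4.58% of all. The SOX motif ACAATG was found in 5 (8.20%), beside 8.63%. The 7 letters followed after 1 base by the SOX motif, TTTGCATNACAATG, stood in 1 member region (1.64%), the NANOG start site (centred at -114 bp), and in 19 of all tested regions (0.0144%). It overlaps its parts, and the stricter form with the full octamer was found in 8 of all tested regions and in no member. At the SOX2 start site the 7 letters were centred at -97 bp. GATAA, the core of GATA factor sites, was found in 10 (16.4%), beside 22.9%, and CTTTGAT, a TCF/LEF motif, in none, beside 2.73%. A match is a description of letters, and no binding was measured.

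Among 40 other genes of the pluripotency network, 36 had a tested start-site region, and 24 had peaks in all 8 libraries. From hESC to CM, 2 were lower and 4 higher, to be read against the 2.78% and 8.01% of all start-site regions. The lower ones were DPPA2 and DPPA4, neighbouring genes of developmental pluripotency associated proteins. DPPA2 had 10.5 and 10.0 in hESC, 9.83 and 8.65 at MES, 5.98 and 5.11 at CP and no peak in CM (-1.69 ± 0.24, adjusted p = 2.63e-10). DPPA4 had 5.12 to 7.12 in the 6 earlier libraries and no peak in CM (-1.13 ± 0.28, adjusted p = 0.000668). The CM values of both genes were filled, which set the direction in large part. The higher ones were ZSCAN10 (0.74, adjusted p = 0.00920), LEFTY2 (0.62, adjusted p = 0.0249), KLF2 (0.74, adjusted p = 0.0451) and TERF1 (0.39, adjusted p = 0.0167). LEFTY2 had no peak in hESC, so both values were filled, and folds of only 3.91 and 3.18 in CM. A region filled at both stages already differs by 0.24. ZSCAN10, KLF2 and TERF1 had peaks in all 8 libraries. The median difference of the 36 was 0.24, beside 0.18 for all start-site regions. Genes with a pattern most like that of a member were to be named only for members whose start site changed from hESC to CM, and there was none.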

How the data were processed

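Cells were profiled by ATAC-seq in 8 libraries. The authors aligned reads with BWA 0.7.13 to hg38, kept primary alignments of mapping quality above 30 and called peaks in each library with MACS2 2.1.0 after duplicates had been taken out with Picard (q of 0.01, shift of -100 and extension of 200 bp). The deposited lists hold for each peak its fold over the local background, −log10 p and −log10 q, and a score that the peak caller derives from q, and no scaling of these folds between libraries is stated. Read depth is not in the lists, so the number of peaks could not be set beside it. The paper reports fewer peaks as differentiation went on, and the part of depth in the list lengths was not tested.

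Peaks on chromosomes 1 to 22 and X were merged at 1 bp of overlap. The log2 fold of the highest peak per library and region was centred on the median of regions with peaks in all 8 libraries. A missing value was set to the median fold of that library's peaks with a −log10 q of 2 to 2.5. Regions with peaks in both libraries of a stage were fitted with limma 3.58.1 in R 4.3.3 (trend, robust), with Benjamini-Hochberg adjustment and a threshold of 0.05. The estimated prior degrees of freedom were infinite, so an SE is that of regions of like level and not the region's own spread. An exact permutation test of 2 against 2 could not go below 0.333 and was not used. Peak numbers per locus were fitted as log2(number + 1) for loci with a mean of at least 1 peak. Copies were searched with blastn 2.17.0, and genes come from GENCODE 44. The text names the 3 regions of highest −log10 q per gene in hESC and CM, the start-site regions, and the called regions. Some others were named after their values were seen. The members and the gene lists were chosen with earlier results of these data known. The procedure was run on simulated data. There, changed regions were drawn only from those with peaks in all 8 libraries, unlike the lower calls from hESC to CM, so it does not test these calls. Alternatives changed the filling, centring, filter, q, list length, merging, window, replicate block, moderation and libraries.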

Additional observations from a re-analysis of the deposited data

How the results depend on the processing

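Unequal list lengths limit these comparisons, since a missing peak is filled and not measured. Of the start-site regions, NANOG (-0.88 to -0.49 with 1 library left out) and SOX2 (0.55 to 0.75) kept their sign and passed under 3 alternatives each, while PRDM14, ZFP42 and SALL4 passed under none. Counts of called member regions moved by over 1.5 times as follows, and the cause was not tested. Shares over all regions under these settings are not given, so the counts describe the members only. With a fold of 1 for a missing peak, MES to CP gave 1 higher and CP to CM 3 lower and 2 higher. With the lowest fold of the list, MES to CP gave 6 lower and CP to CM 2 higher. Without centring, hESC to MES gave 2 lower, CP to CM 3 lower, and hESC to CM 11 lower and 1 higher. With no filter on regions, hESC to MES gave 2 lower and 1 higher and MES to CP 1 higher. With only the 17 regions that had peaks in all libraries, the counts were 0 lower and 0 higher at each of the 3 steps and 0 lower from hESC to CM, since few regions remain. With a −log10 q of at least 5, hESC to MES gave 2 lower and 1 higher and CP to CM 0 lower. Lists of equal length left 51 member regions in all. There hESC to MES gave 0 and 0, MES to CP 1 lower and 0 higher, CP to CM 2 lower, and hESC to CM 11 lower and 2 higher. Merging peaks up to 200 bp apart gave 2 lower from CP to CM. Plain moderation gave 2 lower and 1 higher from hESC to MES and 0 lower from CP to CM. In 20 regions with peaks in all hESC and CM libraries, a choice made after seeing the data, 0 were lower and 1 higher. Regions in both hESC and in no CM library numbered 8 with lists of equal length, 6 within 20 kb and 26 within 100 kb.

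Replicate numbers did not pair the libraries, since the differences of replicate 1 and 2 correlated by -0.096 to 0.092 between stages. With the number as a replicate block, 2 regions were lower from hESC to MES and 2 from CP to CM, and the other counts stayed within 1.5 times. Leaving out 1 library leaves its stage with 1, assumed to vary like the others, and gave 0 to 5 lower and 1 to 2 higher from hESC to MES, 1 to 2 lower and 1 to 3 higher from MES to CP, 0 to 2 lower and 1 to 2 higher from CP to CM, and 1 to 7 lower and 1 to 6 higher from hESC to CM. It gave 0 to 1 called loci and 13 to 39 regions in both hESC and in no CM library, with 39 without hESC replicate 1.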
